A study of Mus musculus with 454 samples.

Results

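The metabolic receptors Lepr, Mc4r, Ffar3, Insr and Sctr were followed through single cells of the mouse nodose ganglion. They were taken by name and make up 5 of the 36920 genes in the table of picked cells and 5 of the 28001 genes in the droplet matrices. All 5 were present in both data sets. The nodose ganglion holds the cell bodies of vagal sensory neurons, and the series is titled for the vagal neurons that control feeding. It has 454 samples: 1 droplet library (10x Genomics) of whole ganglia, while all others are picked cells with a Smart-seq2 library apiece.

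All samples are wild type C57BL/6 mice with no allele or agent named in the labels, aged 6 weeks for the droplet library and 8 to 12 weeks for the picked cells. Ganglia were dissociated with papain, collagenase and dispase. In its header lines the picked-cell table names the mouse of every cell and a code for its target: Port, GastG, GastP, IntL, IntP, IntM, IntD or na. What the codes stand for was not given in the sources used here. Gast below stands for both codes that begin so and Int for all 4. Port had 9 mice and the most cells. The others numbered 60 cells from 5 GastG mice, 45 from 3 GastP mice, 44 from 3 IntL mice, 45 from 4 IntP mice, 45 from 3 IntM mice and 35 from 3 IntD mice, with 53 cells of 4 mice under na. The number of animals behind the droplet library was not stated either.

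Lepr encodes the receptor of leptin, the hormone of fat cells, and signals through JAK2 and STAT3. Mc4r encodes the melanocortin 4 receptor, a Gs-coupled receptor through which melanocortin peptides reduce food intake. Ffar3 encodes a Gi-coupled receptor of the short-chain fatty acids that gut bacteria make, Insr the insulin receptor tyrosine kinase, and Sctr the class B receptor of secretin, a hormone of the upper intestine. Vagal sensory neurons carry signals from the gut and other viscera to the brainstem, and several hormone and nutrient receptors are known in them.

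On GRCm38, by the GENCODE annotation, Lepr (ENSMUSG00000057722) spans chr4:101717404-101815352 on the plus strand, beside Leprot at chr4:101647718-101659364. Mc4r (ENSMUSG00000047259) lies at chr18:66857704-66860506 on the minus strand. Ffar3 (ENSMUSG00000019429) lies at chr7:30854330-30856178 on the minus strand, next to Ffar1, the receptor of long-chain fatty acids, at chr7:30857390-30861564. Insr (ENSMUSG00000005534) lies at chr8:3122061-3279617 on the minus strand and Sctr (ENSMUSG00000026387) at chr1:120006894-120063536 on the plus strand.

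The window around the start of Ffar3 is shown because Ffar3 had the lowest adjusted p of the receptors across codes below. It runs from 250 bases before the RefSeq start to 50 bases after it (RefSeq, GRCm38.p6, chr7:30856129-30856428, minus strand) and is 50.3% G or C.

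Ffar3 promoter window: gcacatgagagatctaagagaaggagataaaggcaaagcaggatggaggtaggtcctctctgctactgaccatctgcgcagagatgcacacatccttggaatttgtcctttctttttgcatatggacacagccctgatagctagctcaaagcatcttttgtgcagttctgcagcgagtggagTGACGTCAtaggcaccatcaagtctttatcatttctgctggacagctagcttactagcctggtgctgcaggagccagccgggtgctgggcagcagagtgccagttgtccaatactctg

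The capitals mark the only match of TGACGTCA, the full cyclic AMP response element, which reads the same on both strands. It begins 68 bases before the start. The same 8 letters occur in 588 of 32851 promoter windows of that length (1.79%), so the match is a description and not a site. The windows of both Lepr starts in the same table hold none.

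The filtered droplet library held 68051490 unique molecular identifiers (UMIs) in 1108 barcodes, between 13505 and 169263 in each and 55397 at the median. Of these, 1087 were neurons in 27 clusters, 1040 of them nodose-like and 47 jugular-like by marker genes, and 21 were satellite glia. All but 3 of the picked cells passed a minimum of 2000 genes. Their reads ran from 3934 to 4692466, and the median cell had 1617517 reads in 11389 genes. Each mouse's picked cells were strongly neuronal: its 6 neuronal markers summed to 11126 to 15236 CPM (counts scaled to one common library total) over the Gast, Int and Port mice. The 5 nodose markers were lower in Gast mice, summing to a median of 1703 CPM (528 to 3668), against 7746 CPM in Int mice (2462 to 8583).

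Across the 1087 droplet neurons, Insr was the receptor in most cells. It had 1563 UMIs, 23.1 CPM (95% Poisson interval 22 to 24.3), with at least 1 UMI in 762 neurons (70.1%). Lepr stood at 5.24 CPM (4.71 to 5.82), in 11.5% of neurons. Sctr stood at 3.49 CPM (3.05 to 3.96), in 9.48% of neurons. Ffar3 had 98 UMIs, 1.45 CPM (1.17 to 1.76), in 78 neurons (7.18%), and Mc4r had 58 UMIs, 0.857 CPM (0.650 to 1.11), in 47 neurons (4.32%). There is 1 droplet library, so its values carry no test, and all intervals and floors given here cover counting error only.

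Lepr counts were concentrated in few neurons. A single neuron held 49 of its UMIs (13.8% of all), and the level without that neuron was 4.52 CPM. No neuron held more than 8 UMIs of Sctr.

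Ffar3 and Sctr were not seen in jugular-like neurons. Ffar3 had 0 UMIs in 47 jugular-like neurons against 98 in 1040 nodose-like neurons, which allows a ratio of up to 0.723, and Sctr 0 UMIs against 3.67 CPM in nodose-like neurons (up to 0.297). By the Clopper-Pearson interval, these shares of 0 of 47 allow up to 7.55% of jugular-like neurons to hold a UMI, at median depths of 72828 UMIs in jugular-like and 55639 in nodose-like neurons. Insr was at 14.4 CPM in jugular-like neurons and 23.5 CPM in nodose-like neurons, a ratio of 0.610 (0.450 to 0.811). Lepr was at 0.603 times its nodose-like level in jugular-like neurons (0.298 to 1.09), and Mc4r at 0.331 (0.00823 to 1.92) on 1 UMI. The intervals of Lepr and Mc4r include a ratio of 1.

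Outside neurons, the unfiltered matrix placed Lepr and Insr in endothelial cells of the ganglion. Lepr reached 36.4 CPM there (25.2 to 50.9) on 34 UMIs and Insr 72.8 CPM (56.5 to 92.3) on 68 UMIs, and 24.4% of the endothelial cells held Lepr and 37.8% held Insr. Both levels exceeded the neuronal ones, with intervals that do not overlap, although the endothelial cells were shallower, with a median of 8442 UMIs against 56119 in neurons. With every cell thinned to 3000 UMIs, Lepr was at 46.3 CPM in endothelial cells and 6.75 CPM in neurons, and Insr at 83.3 CPM in endothelial cells and 27.6 CPM in neurons. Lepr in mural cells rested on 5 UMIs, 27.6 CPM.

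Satellite glia, the cells that wrap the neurons, give the background share that free RNA can add. In 472 of them, at a median of 5340 UMIs, Ffar3 had 0 UMIs, while Lepr, Mc4r and Sctr had 1 each (0.212% of cells). Thinned to 3000 UMIs, Ffar3 was in 6 of 1087 neurons and in none of the satellite glia of that depth, and Sctr in 12 neurons (1.10%). Mc4r was in 4 thinned neurons (0.368%) and 1 thinned glial cell (0.242%), so at that depth its share cannot be told from background. The thinned Ffar3 share, on 6 neurons, is likewise too small to be told from background. Insr was in 4.84% of thinned glia, at 15.6 CPM unthinned.

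**Figure D1:**
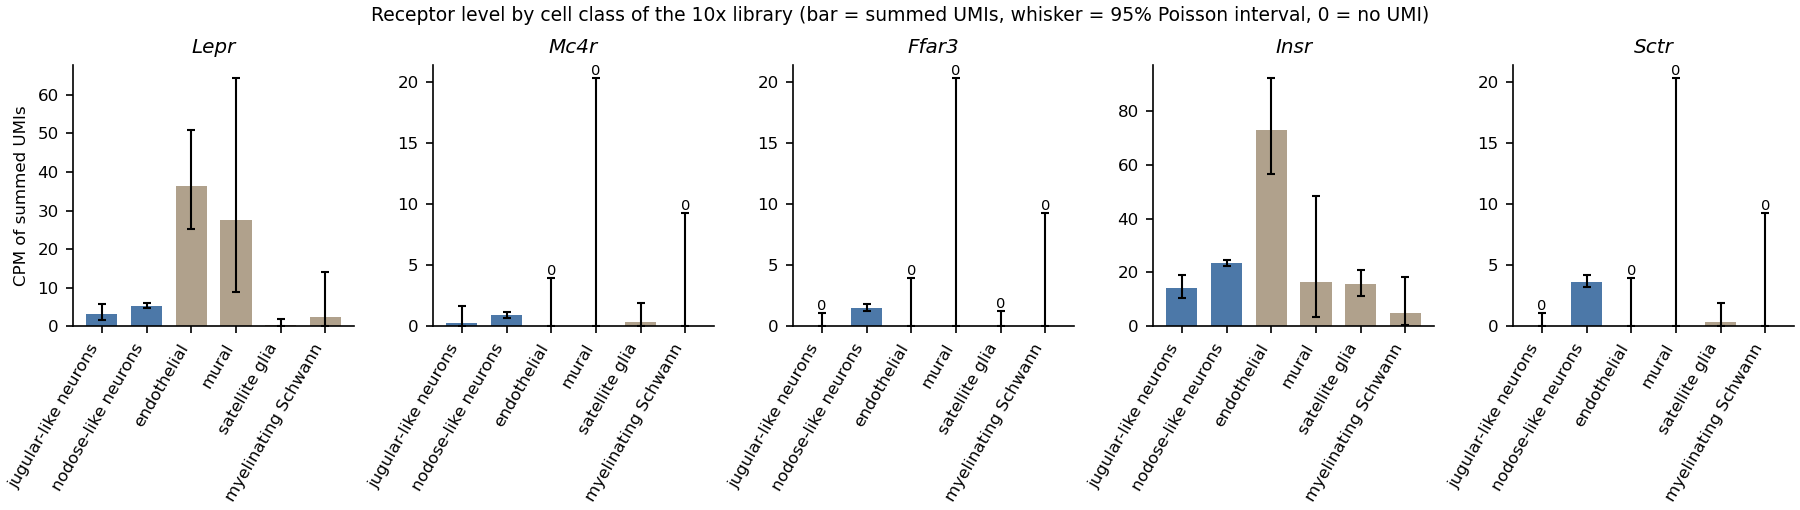
Level of each receptor by cell class in the droplet library, in CPM of UMIs with 95% Poisson whiskers. Jugular-like neurons stand left of nodose-like neurons, then the other classes: Lepr and Insr are highest in endothelial cells at 36.4 and 72.8 CPM, and Ffar3 and Sctr are at 0 in jugular-like neurons.

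Within neurons, the receptors differed in the clusters that held them, which were made without the receptors or their pathway lists among the genes used to cluster. Sctr was the most confined. Cluster 16, led by Pnoc and Ctla2a, had 28.5 CPM of Sctr (22.5 to 35.7) in 78.4% of its 37 cells. Cluster 0, led by Uts2b and Gabre, had 25.8 CPM (21.5 to 30.6) in 59.3% of its 86 cells. Together they held 87.7% of the Sctr UMIs, the next cluster reached 2.47 CPM, and 14 clusters had none.

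The 4 clusters highest in Ffar3 had intervals that overlap. Cluster 11, led by Gpr65 and Edn3, had 6.23 CPM (4.14 to 9.0) in 47.5% of its 40 cells, at a median of 113219 UMIs per cell. Cluster 19 had 5.64 CPM, cluster 0 had 4.72 CPM and cluster 16 had 4.50 CPM, and both Sctr clusters are among them. In 10 clusters Ffar3 had no UMI. The highest Ffar3 cluster became another one, of 23 cells at 14.1 CPM holding 7.14% of the UMIs, when the cells were clustered at a resolution of 1 or 2 in place of 1.5.

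Mc4r stood apart from both. Cluster 22, led by Cbln2 and Pln, had 18.1 CPM (10.9 to 28.2) in 54.5% of its 22 cells and held 32.8% of the Mc4r UMIs. The next cluster, cluster 8, had 3.52 CPM, with an interval that does not overlap. Of the 27 clusters, 12 had none.

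Insr was found in every cluster. It was highest in cluster 0 at 55.4 CPM (49.2 to 62.3) and cluster 16 at 45 CPM, the Sctr clusters, and lowest in cluster 11 at 10.5 CPM (7.68 to 13.9), the highest Ffar3 cluster. Lepr read 23.3 CPM in cluster 16, 17.7 CPM in cluster 19 and 16.1 CPM in cluster 23. Without the neuron that held most of its UMIs in each of these clusters, an alternative added after seeing the data, the levels were 5.04 CPM in cluster 16, 12.2 CPM in cluster 19 and 8.75 CPM in cluster 23. The order of the Lepr clusters therefore rests on single neurons.

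**Figure D2:**
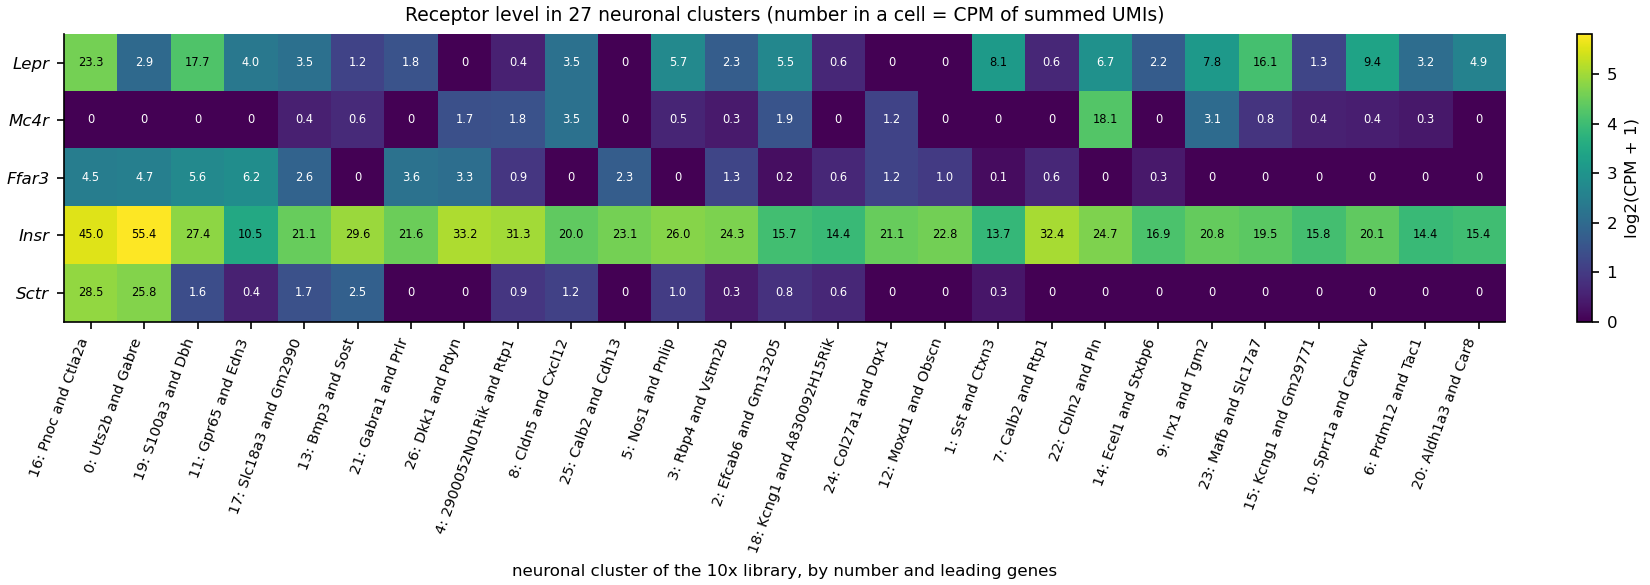
Heat map of the receptors over the 27 neuronal clusters of the droplet library, coloured by log2(CPM + 1) and labelled with the CPM. Clusters are ordered by Sctr and Ffar3: Sctr is strong in clusters 16 and 0 alone, at 28.5 and 25.8 CPM, and Mc4r peaks in cluster 22 at 18.1 CPM.

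The genes whose levels over the 27 clusters were most like a receptor's were ranked among 10594 genes by Pearson's correlation, a description within 1 library with no test. For Sctr they were Cbln4 (0.92), Gabre (0.86), Uts2b (0.85), Tmem64 (0.81) and Brd9 (0.81). Gabre encodes a GABA-A receptor subunit and Uts2b the peptide urotensin 2B. For Insr they were Ndnl2 (0.87), Tppp (0.86), Pcsk1 (0.86), Hsd17b12 (0.80) and Slc35b4 (0.78), of which Pcsk1 encodes a prohormone convertase. For Mc4r they were Smpx (0.79), Echs1 (0.78), Car2 (0.76), Esrrg (0.74) and Zfp365 (0.73).

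For Ffar3 the correlations were lower, with Akr1b3 (0.74), Tm4sf4 (0.72), Diras2 (0.70), Cyth3 (0.68) and Slco3a1 (0.68). For Lepr, Rgs7bp (0.74) and Tubb3 (0.71) came first, followed by Sult4a1, Ghitm and Rab15. Between the receptors themselves, Insr and Sctr had a correlation of 0.65 over the clusters, Ffar3 and Sctr 0.45, and Mc4r and Ffar3 -0.37.

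Genes that act with the receptors were found in most droplet neurons for some pathways and in few for others. Of the leptin pathway, Stat3 had a UMI in 99.1% of neurons, Il6st in 98.1%, Leprot in 76.4%, Socs3 in 59.8% and Jak2, the kinase bound to the receptor, in 49.6%. Of the insulin pathway, Igf1r was in 95.7% of neurons, Irs2 in 74.9% and Irs1 in 8.65%. These shares, taken as for Lepr (11.5%) and Insr (70.1%), cover all 1087 neurons and say nothing of which cells hold both.

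Receptors related to the 5 were mostly rare. Among melanocortin receptors Mc3r was in 4.69% of neurons and Mc1r in 1.10%, while Mc2r and Mc5r had no UMI. The accessory protein gene Mrap2 was in 62.5% of neurons and Agrp in 35.6%. Of the fatty acid receptors Ffar4 was in 2.48% and Ffar1 in 2.21% of neurons, and Ffar2, the other receptor of short-chain fatty acids, had no UMI, where 3 counts would be 0.0443 CPM.

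Of the class B receptors, Pth1r was in 74.8% and Crhr2 in 66.7% of droplet neurons. Glp1r, the receptor of the gut hormone GLP-1, was in 0.184% on 3 UMIs and Gipr in 0.368% on 4 UMIs. Vipr1, Glp2r, Ghrhr and Calcr had no UMI. Sctr, in 9.48% of neurons, lay between these groups.

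Few neurons held many of the receptors. In 24.2% of droplet neurons none of the 5 had a UMI, in 579 neurons (53.3%) exactly 1 did, in 18.5% 2 did, in 42 neurons (3.86%) 3 did and in 2 neurons 4 did. Ffar3 and Sctr shared 25 neurons, against 7.39 if they were independent. Insr and Sctr shared 96, against 72.2, and Lepr and Mc4r shared 10, against 5.40. Mc4r shared no neuron with Ffar3 (3.37 were the independent number) or with Sctr (4.45). Deeper cells hold more genes of every kind, and these counts are not corrected for depth.

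In the picked cells, at a median of 1617517 reads and a lowest of 3934, a receptor was counted as detected at 10 reads. Reads and UMIs are different measures, so these depths are not directly comparable with those of the droplet neurons. Insr was detected in 66.6% of cells (Clopper-Pearson 95% interval 62 to 70.9), Ffar3 in 27.2% (23.1 to 31.5), Sctr in 43 cells (9.58%, 7.02 to 12.7), Mc4r in 25 (5.57%, 3.64 to 8.11) and Lepr in 24 (5.35%, 3.45 to 7.85). At 1 read the shares were 94.4% for Insr, 40.1% for Ffar3, 14.5% for Sctr, 10.2% for Mc4r and 65.5% for Lepr. With cells thinned to 100000 reads and 1 read required, they were 60.5% for Insr, 25.4% for Ffar3, 9.60% for Sctr, 5.58% for Mc4r and 11.6% for Lepr.

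Cells counted as detected lie at or above the threshold by definition. The median among detected cells was 52 reads for Sctr (31.1 CPM), 32 for Mc4r (17.1 CPM), 25 for Ffar3 (16.9 CPM) and 22 for Insr (13.3 CPM). The highest cell reached 128.4 CPM of Sctr, 107.7 CPM of Mc4r and 62 CPM of Ffar3.

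Lepr is the least certain of the 5 in this table. Of the cells with any Lepr read, 270 had fewer than 10 and 24 had at least that many, the median of those 24 was 13 reads, and 47.6% of its values were whole numbers of reads, against 100% for the other receptors. The way reads were shared between overlapping transcripts was not stated in the labels. Leprot, the neighbouring gene, which in humans shares its first exons with LEPR, had 10 reads in 99.1% of cells. Its values were 100% whole reads, and the cause of the fractional Lepr reads was not tested. Ffar1, next to Ffar3, had reads in 6 cells and never 10.

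Combinations of receptors were counted in the same way. Of the picked cells, 22.5% held none at 10 reads, 47% held 1, 24.3% held 2, 28 cells (6.24%) held 3, and none held 4 or 5. Ffar3 and Sctr were together in 21 cells of 11 mice, against 11.7 if independent and 14.9 if independent within the droplet cluster each cell was matched to. Lepr and Mc4r were together in 5 cells, against 1.34 and 3.08 by the same counts, while at 1 read 33 cells held both, against 30.1 and 29.7. Mc4r and Ffar3 were together in 2 cells, against 6.79 and 2.54. Insr and Sctr were together in 37 cells, against 28.6 and 34.8.

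Picked cells were matched to the droplet clusters over 567 genes. The same matching returned 84.7% of 544 droplet neurons, held out of the cluster profiles, to their own cluster. The genes and clusters had been set with those neurons included. The rate therefore does not measure how well picked cells, read by another protocol, were matched. Ffar3 was detected in 78.1% of the 96 picked cells matched to cluster 11 and in 47.5% of that cluster's droplet neurons. It was in 46.7% of 15 picked cells matched to cluster 0, 17.2% of 99 matched to cluster 1 and 0 of 46 matched to cluster 2. Sctr was in 73.3% of picked cells matched to cluster 0 and 62.5% of 32 matched to cluster 16, against 59.3% of the droplet neurons of cluster 0 and 78.4% of those of cluster 16.

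Only 2 picked cells matched cluster 22, the highest droplet cluster of Mc4r, and 1 of them held Mc4r. Mc4r was in 17.4% of the 46 picked cells matched to cluster 2, against 15.2% of its droplet neurons. It was in 15.6% of those matched to cluster 16, where no droplet neuron held it, and 17.6% of 17 matched to cluster 10, against 2.38% of its droplet neurons. It was in 0 of 96 matched to cluster 11 and 0 of 46 matched to cluster 19, and no droplet neuron of these clusters held it. Differences between the data sets were not tested. Among clusters with at least 10 picked cells, Insr ran from 16.7% of 12 picked cells matched to cluster 14 to 91.7% matched to cluster 7, and Lepr from 0% matched to cluster 4 to 10.9% matched to cluster 2.

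**Figure D3:**
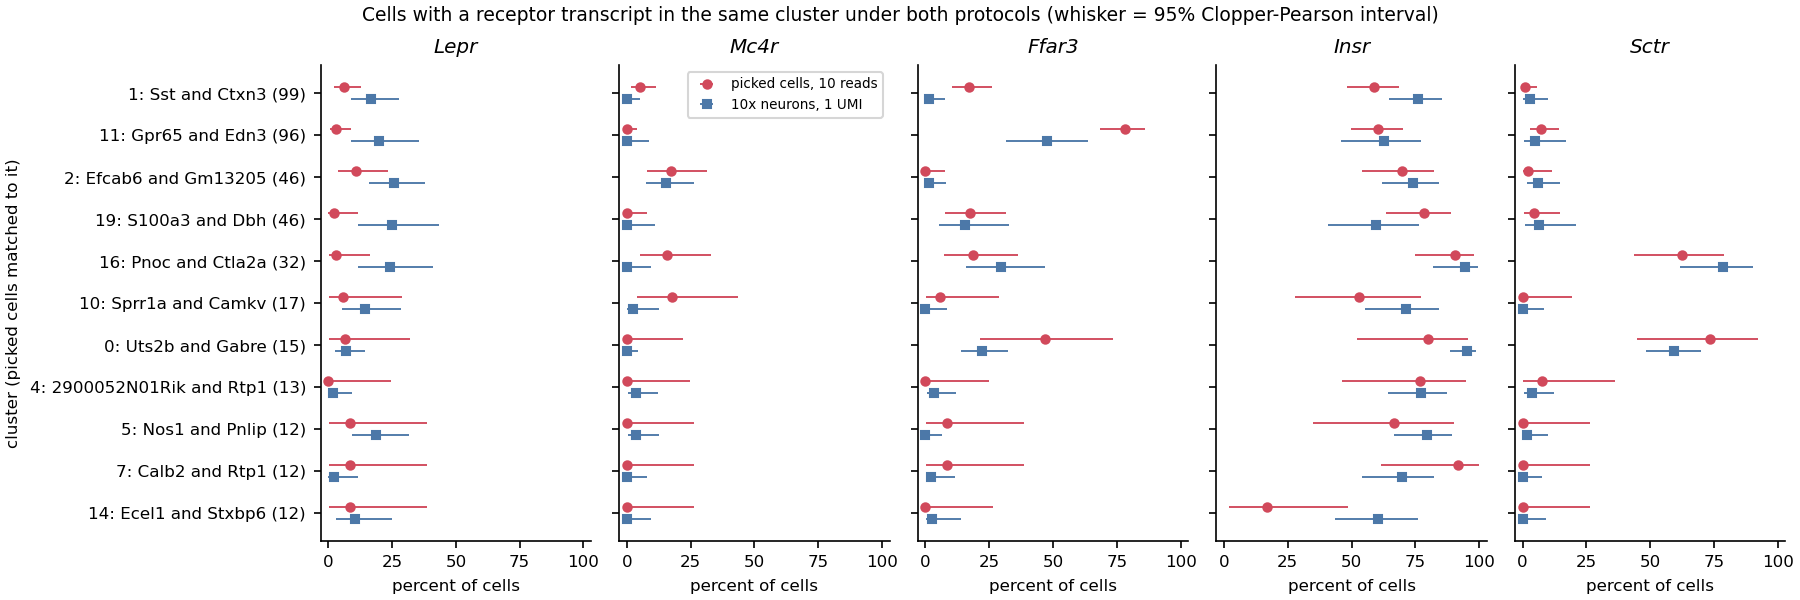
Percent of cells with each receptor in the 11 droplet clusters to which at least 10 picked cells were matched, for picked cells (10 reads) and droplet neurons (1 UMI), with 95% Clopper-Pearson whiskers. Ffar3 is highest in cluster 11 in both, and Sctr is high in clusters 0 and 16 in both.

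To compare target codes, the mean over a mouse's cells of log2(CPM + 1) was fitted across 29 mice with limma for 12703 genes, and all 5 receptors passed the filter of 10 reads in 5% of cells. All levels and differences by code below are on that log2 scale. The F test across the 7 codes passed for 2 receptors, Ffar3 (adjusted p = 0.00723) and Sctr (adjusted p = 0.00945), where 22.3% of all genes tested passed. Insr (0.0966), Lepr (0.149) and Mc4r (0.238) did not pass. A mouse mean cannot tell fewer cells with a receptor from less RNA per cell, so shares of cells are given beside it.

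Ffar3 was highest in the IntD mice and lowest in the GastG mice. The highest IntD mouse, at 4.61, had only 4 cells. From high to low the mean level was 2.91 ± 1.53 in IntD (SD, 3 mice), 2.30 ± 1.05 in IntM, 1.88 ± 0.97 in IntP, 1.49 ± 0.27 in IntL, 1.27 ± 0.11 in GastP, 0.94 ± 0.25 in Port and 0.66 ± 0.39 in GastG. The mouse ranges of each pair of neighbours in this order overlap. Cells with Ffar3 made up 51.4% of IntD, 44.4% of IntM, 28.9% of IntP, 27.3% of IntL, 28.9% of GastP, 18% of Port and 15% of GastG cells.

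Sctr was highest in IntM. Its mean was 1.43 ± 0.14 in IntM, with mice at 1.26, 1.5 and 1.52, and 0.77 ± 0.11 in IntD, with mice at 0.65, 0.79 and 0.87, so these neighbours do not overlap. The order went on with 0.66 ± 0.53 in IntL, 0.34 ± 0.46 in Port, 0.32 ± 0.34 in GastG, 0.18 ± 0.19 in IntP and 0.12 ± 0.21 in GastP, where neighbours overlap. Sctr was detected in 24.4% of IntM cells and in 2.22% to 11.4% of the cells of the other codes.

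Insr was highest in IntP at 3.99 ± 0.59 and lay between 2.91 ± 0.26 (IntL) and 3.24 ± 0.35 (Port) in the others, with all neighbours overlapping. Lepr was 1.17 ± 0.16 in IntP, 1.10 ± 0.29 in Port, 1.06 ± 0.21 in GastG, 0.94 ± 0.39 in IntD, 0.92 ± 0.06 in GastP, 0.73 ± 0.09 in IntM and 0.56 ± 0.12 in IntL, and only GastP and IntM among the neighbours do not overlap. Mc4r was highest in Port at 0.62 ± 0.56, followed by GastP at 0.36 ± 0.39, GastG at 0.26 ± 0.38, IntM at 0.16 ± 0.08, IntD at 0.07 ± 0.13, IntP at 0.05 ± 0.10 and IntL at 0.02 ± 0.03, all overlapping.

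Shares of cells did not always follow the mean level: IntP mice had the highest mean of Lepr and 1 of 45 cells at 10 reads. Lepr was detected in 10.7% of Port cells, 6.67% of GastP, 5.71% of IntD, 5.0% of GastG and 2.22% of both IntP and IntM cells. Mc4r was detected in 12.3% of Port, 6.67% of GastP, 5.0% of GastG, 2.86% of IntD and 2.22% of both IntP and IntM cells. Neither was detected in the 44 IntL cells, which allows a share of up to 8.04% by the Clopper-Pearson interval. Insr was detected in 88.9% of IntP, 68.9% of GastP, 68% of Port, 66.7% of IntM, 60% of IntD, 55% of GastG and 54.5% of IntL cells.

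**Figure D4:**
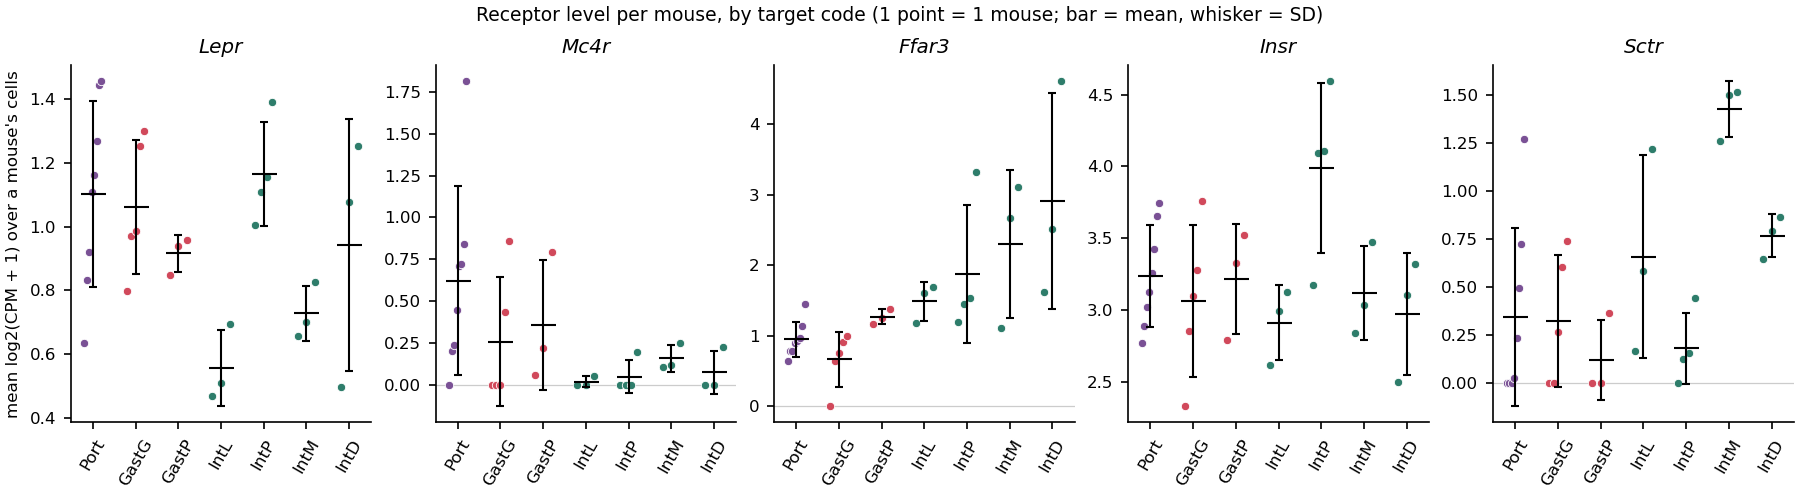
Mean log2(CPM + 1) of each receptor per mouse, with 1 point per mouse, a bar at the mean and a whisker of 1 SD, for the codes Port, GastG, GastP, IntL, IntP, IntM and IntD. Ffar3 is low in Port and Gast mice, all under 1.45, and Sctr is highest in the 3 IntM mice, between 1.26 and 1.52.

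Gast mice had less Ffar3 and less Sctr than Int mice, and the other receptors did not pass the test. Ffar3 was 0, 0.63, 0.76, 0.91 and 1.00 in the GastG mice and 1.17, 1.25 and 1.38 in the GastP mice. In the 13 Int mice its lowest, median and highest values were 1.11, 1.62 and 4.61. The highest was IntD 19, a mouse of only 4 cells, all with Ffar3. All 8 Gast mice lay below the Int median, though the ranges overlap. The difference, Gast minus Int, was -1.18 ± 0.30 (SE, limma adjusted p = 0.00740), on means of 0.89 ± 0.44 in Gast and 2.12 ± 1.05 in Int (SD, n = 8 and 13).

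The share of a mouse's cells with Ffar3 had a lowest, median and highest value of 0%, 20.8% and 33.3% in Gast and 16.7%, 33.3% and 100% in Int. As a difference in this share neither Ffar3 (-21.2 percentage points, limma adjusted p = 0.125) nor Sctr (-9.08 points, 0.301) passed. Sctr was 0, 0.13 and 0.74 (lowest, median and highest) in Gast and 0, 0.65 and 1.52 in Int. Of the Gast mice 7 of 8 lay below the Int median, and the ranges overlap. The Sctr difference was -0.54 ± 0.16 (adjusted p = 0.0256, limma), on means of 0.25 ± 0.30 in Gast and 0.72 ± 0.53 in Int. Of the 12703 genes 14.8% were called in this comparison and 5.74% were called lower, beside 2 of the 5 receptors called, both lower.

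Lepr differed by 0.14 ± 0.13 (adjusted p = 0.517), Insr by -0.11 ± 0.20 (0.780) and Mc4r by 0.23 ± 0.17 (0.416). Cells with Mc4r numbered 6 in Gast and 3 in Int. An edgeR quasi-likelihood test on reads summed per mouse put Mc4r higher in Gast by 4.0 (adjusted p = 0.0165), where 14.9% of all genes were called, and the Mc4r call came from edgeR alone. The same test gave -1.68 for Ffar3 (adjusted p = 0.0106) and -1.89 for Sctr (adjusted p = 0.337), which lost its call.

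The mix of matched clusters moved with these differences. Cells matched to cluster 11 made up a median of 0% of a Gast mouse's cells (0% to 23.1%), 4 cells in all, against 41.7% in Int mice (11.8% to 100%), 64 cells. Cluster 1, led by Sst and Ctxn3, made up a median of 50% in Gast (23.1% to 75%) and 6.25% in Int (0% to 18.8%). Clusters 0 and 16, the Sctr clusters, took 5 Gast and 18 Int cells. The 5 jugular markers summed to 246.7 to 509.2 CPM in Gast mice and 186.4 to 367.6 CPM in Int mice, and the 6 satellite glia markers to 259.9 to 2757 CPM in Gast and 359.2 to 2887 CPM in Int, all list genes being detected. The part of these sums in the result was not tested.

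Counts within a cluster were small and were not tested. Among cells matched to cluster 11, Ffar3 was detected in 3 of 4 Gast cells and 49 of 64 Int cells (76.6%), and 14 of 16 Port cells (87.5%). Among cells matched to cluster 1, Ffar3 was detected in 13 of 48 Gast cells (27.1%) and 0 of 12 Int cells, and 4 of 28 Port cells. With the matched cluster as a covariate for each cell the Ffar3 difference was 0.47 (adjusted p = 0.502) and the Sctr difference -0.18 (adjusted p = 0.844), where 0.834% of genes were called in place of 14.8%. With mice numbered up to 39 alone, since the numbers may follow the order of work, Ffar3 differed by -1.26 (adjusted p = 0.0536), where 16.4% of genes were called. Sctr lost its call without any 1 of the mice GastG 7, GastP 9 or GastP 44 (adjusted p up to 0.0734).

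Port mice were set against Gast and Int together, and no receptor passed the test, where 4.98% of genes did. Mc4r came nearest. Its lowest, median and highest values were 0, 0.58 and 1.81 in the 8 Port mice and 0, 0.06 and 0.86 in the 21 others, and 7 of 8 Port mice lay above the median of the others. The difference was 0.43 ± 0.16 (limma adjusted p = 0.0969). Mc4r was in 15 Port cells (12.3%), and a single mouse, Port 22, had it in 36.8% of its cells. These 15 are among 25 picked cells with Mc4r, so it passed the filter of 10 reads in 5% of cells largely through Port. With no filter beyond 1 read in 3 cells the difference was also 0.43 (limma adjusted p = 0.109).

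The Mc4r call in Port depends on which mice enter. It was 0.57 (adjusted p = 0.0421) with Port 28, a mouse of fewer than 4 cells, included (8.31% of genes called), 1.05 (0.000203) with mice up to 39 (27.9% called), and 0.26 (0.318) without Port 22. Leaving out GastP 44 or Port 51 also took it past the threshold. Ffar3 differed by -0.61 ± 0.28 (adjusted p = 0.180), Lepr differed by 0.19 ± 0.11 (0.340), Insr by 0.04 ± 0.18 (0.917) and Sctr by -0.15 ± 0.15 (0.605). Port held 13 of the 24 picked cells with Lepr, so Lepr too passed the filter largely through Port. With no filter beyond 1 read in 3 cells the Lepr difference was also 0.19 (limma adjusted p = 0.316). Gast and Int mice also enter the comparison of Gast with Int, so the comparisons share samples.

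IntP mice differed from IntM and IntD mice in Sctr and Insr, in opposite directions. Sctr was 0, 0.13, 0.16 and 0.44 in the IntP mice, below all 6 IntM and IntD mice at 0.65 to 1.52. The difference was -0.92 ± 0.23 (limma adjusted p = 0.0153), on means of 0.18 ± 0.19 in IntP and 1.10 ± 0.38 in IntM and IntD (n = 4 and 6). Sctr was detected in 1 of 45 IntP cells, against 11 of 45 IntM and 3 of 35 IntD cells. Clusters 0 and 16 took 1 of 45 IntP cells and 12 of 80 IntM and IntD cells.

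Insr was 3.17, 4.09, 4.11 and 4.59 in the IntP mice, against 2.84, 3.04 and 3.48 in IntM and 2.50, 3.10 and 3.32 in IntD. The lowest IntP mouse lies inside the range of the others. The difference was 0.95 ± 0.27 (limma adjusted p = 0.0320), with Insr in 40 of 45 IntP cells (88.9%), against 30 of 45 IntM (66.7%) and 21 of 35 IntD cells. Of all genes 7.88% were called here, 6.14% higher and 1.74% lower, and the median over all genes was 0.10.

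Cluster 19, led by S100a3 and Dbh, took 23 of 45 IntP cells and 8 of 80 IntM and IntD cells. In the fit of mouse and matched cluster pairs, whose rows are not independent mice, Insr kept its call at 0.98 (limma adjusted p = 0.0256). Sctr lost its call there at -0.48 (adjusted p = 0.254), where 10.2% of genes were called. By edgeR, which called 4.19% of genes, neither passed, with 0.82 for Insr (adjusted p = 0.0613) and -3.85 for Sctr (adjusted p = 0.251). Leaving out 1 mouse at a time ended the Insr call for 6 mice (IntP 11, 16 and 17, IntM 15 and 20, and IntD 18), with differences of 0.75 to 1.22 and adjusted p up to 0.162, and the Sctr call for IntP 11 and IntP 17. Ffar3 (-0.73, adjusted p = 0.306), Lepr (0.33, 0.256) and Mc4r (-0.07, 0.909) were not called.

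**Figure D5:**
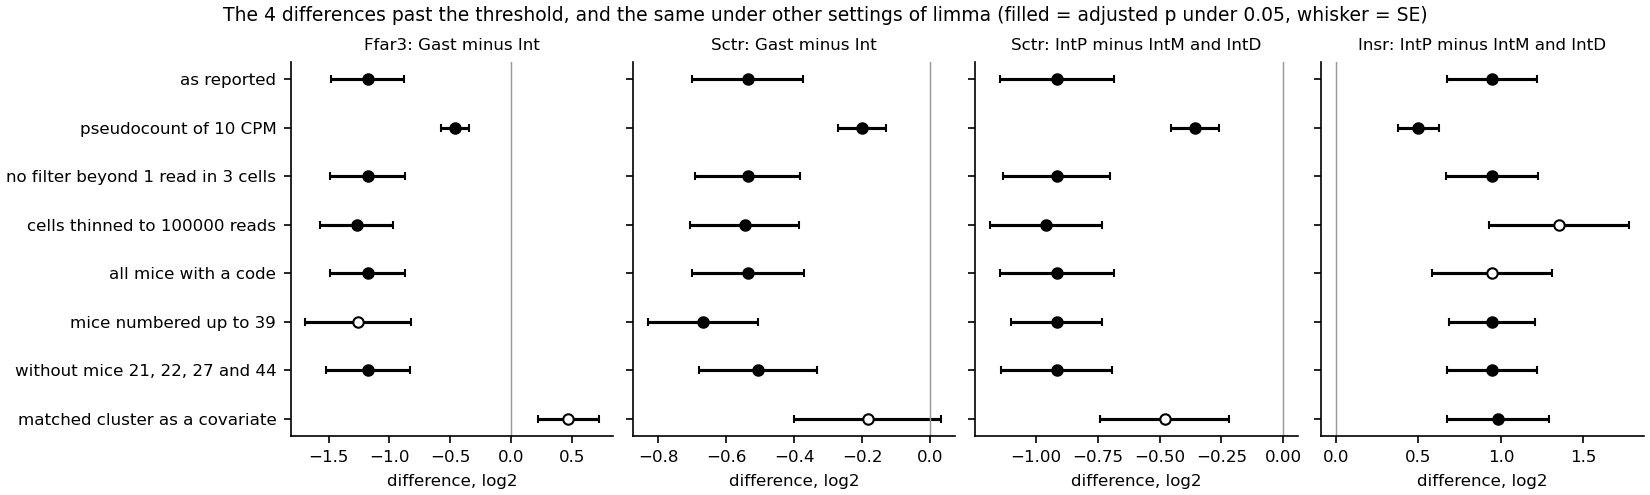
The 4 called differences, Ffar3 and Sctr for Gast minus Int and Sctr and Insr for IntP minus IntM and IntD, on the log2 scale with SE whiskers, under each setting of the limma fit; filled points passed an adjusted p of 0.05. Ffar3 for Gast minus Int was -1.18 as reported and 0.47 with the matched cluster as a covariate.

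Between GastG and GastP, and between IntL and either the other Int codes or Gast, no receptor was called. No gene was called between GastG and GastP by limma or edgeR (0%), though 549 genes had an unadjusted p under 0.05. All 5 GastG mice had less Ffar3 (0 to 1.00) than all 3 GastP mice (1.17 to 1.38), with a difference of -0.61 ± 0.48 (limma adjusted p = 0.996). Lepr (0.15), Mc4r (-0.10), Insr (-0.15) and Sctr (0.20) had the same adjusted p. IntL and the other Int codes differed by -0.88 ± 0.43 in Ffar3 (0.259), -0.39 ± 0.18 in Lepr (0.225), -0.45 ± 0.28 in Insr (0.394), -0.13 ± 0.24 in Sctr (0.807) and -0.08 ± 0.25 in Mc4r (0.904), where 5.51% of genes were called. IntL mice had less Lepr (0.47 to 0.69) than all Gast mice (0.80 to 1.30), with a difference of -0.43 ± 0.19 (adjusted p = 0.235), where 3.20% of genes were called. Against Gast, IntL differed by 0.52 ± 0.45 in Ffar3 (0.602), 0.44 ± 0.24 in Sctr (0.376), -0.29 ± 0.26 in Mc4r (0.613) and -0.23 ± 0.29 in Insr (0.735). Across the 4 Int codes alone, the F test passed for Sctr (adjusted p = 0.0224) and not for Insr (0.0554), Lepr (0.162), Ffar3 (0.225) or Mc4r (0.985), with 9.84% of genes called.

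Genes of each receptor's pathway were counted in the same limma fit. Over the 6 lists, 18 of 76 tested genes (23.7%), the receptors included, passed in Gast against Int, where 14.8% of all genes did. In Gast against Int, of 14 leptin signalling genes, all tested, 3 were higher and none lower, with a list median of 0.18 beside 0.07 for all genes. Socs3, the feedback inhibitor of JAK and STAT signalling, was higher by 2.35 ± 0.35 (adjusted p = 2.1e-05), Il6st, the gp130 co-receptor of interleukin 6, by 0.67 and Stat3 by 0.31. Lepr itself was not called.

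Of 14 melanocortin genes 7 were tested, 3 were lower and none higher, with a median of -0.52. Mrap2, an accessory protein of melanocortin receptors, was lower by 2.70 (-2.70 ± 0.30, adjusted p = 2.8e-07), Agrp, the natural antagonist of the receptors, changed by -1.90 and the adenylyl cyclase Adcy3 by -0.95. By edgeR 1 melanocortin gene was higher, Mc4r, and 1 lower.

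Of 17 fatty acid and metabolite receptor genes 8 were tested and 2 were lower, Ffar3 and the inhibitory G protein subunit Gnai1 (-0.54). Of 18 class B receptor genes 6 were tested and 2 were lower, Sctr and Crhr2, a receptor of urocortins (-1.50). Of 29 insulin and IGF signalling genes 27 were tested. Pik3r1 (0.74), the glucose transporter Slc2a4 (0.44) and Grb2 (0.26) were higher, and Grb10 (-0.81), an inhibitor of the insulin receptor, and the kinase Gsk3b (-0.21) were lower.

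Of 21 other feeding and gut hormone receptors 14 were tested. The peptide YY receptor Npy2r was higher (0.98), and the somatostatin receptor Sstr2 (-1.66) and the neurotensin receptor Ntsr1 (-1.46) were lower. With the matched cluster as a covariate no gene of the leptin, melanocortin, fatty acid, insulin and other feeding receptor lists passed in this comparison, and 1 class B gene was lower.

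In IntP against IntM and IntD, 9 of the 27 tested insulin and IGF signalling genes were higher and none lower, with a list median of 0.20 beside 0.10 for all genes. Besides Insr they included Irs2 (1.66), the first relay of the receptor, the kinases Pik3ca (0.71), Pdpk1 (0.66) and Mtor (0.65), the Mtor inhibitor Tsc1 (0.88) and Gsk3b (0.35). These genes include both relays and inhibitors of the pathway. By edgeR 5 were higher and 1 lower, with the matched cluster 8 were higher, and with cells thinned to 100000 reads 2 were higher.

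In Port 9 of the 76 tested list genes (11.8%) passed, where 4.98% of all genes did. Stat5b (0.80), the parathyroid hormone receptor Pth1r (1.36) and the gastrin and cholecystokinin receptor Cckbr (2.64) were higher. Agrp (-0.90), the adaptor Shc1 (-0.76), the metabolite receptor Gpr35 (-1.25), Ntsr1 (-1.80), the cannabinoid receptor Cnr1 (-1.35) and Sstr2 (-0.74) were lower.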

How the data were processed

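Per the submitters' processing notes, Cell Ranger 2.0.1 and the mm10 build were used; for the picked cells no aligner was given in the sources used here. The matrices deposited by the authors hold counts of UMIs. The deposited table of picked cells holds log2 values of reads with a floor of -5.64 read as 0; 94.1% of values above it were whole reads within 1 part in 1000. Gene, barcode and cell names (unit other) were read as labels, per the file headers. Of the table's per-sample columns 1 was not used.

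CPM were computed per cell. The replicate is the mouse (at least 4 cells): means of log2(CPM + 1) entered a limma trend fit (version 3.58.1, R 4.3.3) of the 12703 genes that reached 10 reads in 5% of cells or more, with Benjamini-Hochberg adjusted p under 0.05 called. P-values of differences are two-sided and set the difference against the spread between mice, while the F tests have no direction. Those of the fit with the matched cluster rest on 177 mouse and matched cluster pairs in place of mice. Where the labels say nothing of litter or day, none was modelled. EdgeR 4.0.16 quasi-likelihood tests on summed reads, with TMM or DESeq2 1.42.0 size factors, were the count alternative. The script was tested on simulated data: for Gast against Int, limma recovered 91% of 100 genes changed by 1 and 100% of 100 changed by 2 on the log2 scale, over 12703 genes.

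Droplet barcodes were clustered with scanpy 1.11.5 (Leiden, resolution 1.5) and named from fixed markers. Scrublet marked 3 of 1108 filtered barcodes and none was removed. The unfiltered matrix gave 2435 barcodes of at least 1000 UMIs and 500 genes. Clusters 4, 24 and 25 were high in glial markers and cluster 8 in endothelial ones (596 CPM). Picked cells were matched to clusters by Spearman correlation over 567 genes.

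The receptors and lists were chosen with earlier results of these data known. Every receptor was named in every comparison, with the 5 genes most like it over the clusters among genes of at least 200 UMIs, and the up to 2 highest and 2 lowest list genes past the threshold for Gast against Int; other list genes named were chosen after their values were seen. Alternatives are in the closing section.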

Additional observations from a re-analysis of the deposited data

Results flagged for a closer look

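Groups of 4 to 8 mice of 1 code were examined, 20 in all. In 3 of them a mouse's gap to the nearest other exceeded Dixon's critical value. The rate of 1 in 20 set by that value holds for normal values and not for means at the floor, so no excess is read from this count. Mc4r read 0.196 in IntP mouse 11, whose 17 cells held it in 5.88%, and 0 in the other 3 IntP mice. With the others at 0, any Mc4r read in mouse 11 would have exceeded the critical value. Mc4r read 1.81 in Port mouse 22, with the nearest Port mouse at 0.84. Ffar3 read 3.32 in IntP mouse 16, a mouse of 7 cells of which 71.4% held it, with the nearest at 1.53.

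The 53 cells of code na entered no comparison. At 10 reads, Ffar3 was in 28.3% of them, Insr in 69.8%, Sctr in 18.9%, and Lepr and Mc4r in 1.89% each.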

How the results depend on the processing

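No paired analysis was possible because each mouse carries 1 target code. Over planned settings other than leaving out a mouse, the 30 differences of a receptor between codes lost the call in 15 values, gained one in 4, changed sign in 29 and kept direction and call in all others. Of the sign changes, that of Ffar3 for Gast minus Int alone turned a called difference. Of 870 values with 1 mouse left out, 849 kept direction and call. Depth limits detection: thinned to 100000 reads, with 10 reads required, Lepr, Ffar3 and Insr were in 0%, Mc4r in 0.223% and Sctr in 1.12% of picked cells. The cause of each change was not tested.

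For Gast minus Int, Ffar3 was -1.26 (adjusted p = 0.0536) with mice up to 39, 0.47 with the matched cluster and -21.2 percentage points as a share of cells (adjusted p = 0.125). It was -1.34 to -0.97 with 1 mouse left out, always called. Sctr was -1.89 and -1.90 by edgeR with either scaling, -9.08 points as a share (0.301) and -0.18 with the matched cluster. It was -0.60 to -0.47 with 1 mouse left out. Mc4r was 4.0 by edgeR with either scaling and -0.0053 with mice up to 39. Insr was 0.0897 thinned, 0.23 with mice up to 39 and 0.0277 with the matched cluster.

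For Port, Mc4r was 0.57 with all mice, 1.05 with mice up to 39, and 0.26 to 0.52 with 1 mouse left out. Insr was -0.20 thinned, -0.19 with all mice, -0.0191 with mice up to 39, -0.0737 without the mice 21, 22, 27 and 44 (high in injury genes in an earlier reading), -0.13 with the matched cluster, and -0.0304 to 0.11 with 1 mouse left out. Sctr was 0.74 and 0.75 by edgeR and 0.0394 without those 4 mice.

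For IntP minus IntM and IntD, Insr was 0.82 and 0.81 by edgeR (adjusted p = 0.0613 and 0.0625), 24.5 points as a share (0.324), 1.35 thinned (0.0694), 0.95 with all mice (0.114), and 0.75 to 1.22 with 1 mouse left out. Sctr was -3.85 and -3.87 by edgeR, -15.5 points as a share (0.322), -0.48 with the matched cluster, and -1.0 to -0.86 with 1 mouse left out. Mc4r was 0.12 with the matched cluster.

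For GastG minus GastP, never called, Lepr was -0.14 thinned. Mc4r was 0.00075 with a pseudocount of 10, 0.38 by edgeR with either scaling, 0.12 without the 4 mice, and -0.25 to 0.12 with 1 mouse left out. Insr was 0.0186 and 0.0313 by edgeR, 0.0915 with mice up to 39, and -0.36 to 0.0323 with 1 mouse left out. Sctr was -0.18 with mice up to 39. For IntL minus other Int, Sctr was 1.31 and 1.32 by edgeR, 0.0051 with the matched cluster, and -0.41 to 0.11 with 1 mouse left out. For IntL minus Gast, Insr was 0.0287 and 0.0349 by edgeR and Ffar3 -0.48 with the matched cluster.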
